A study of Paralichthys olivaceus with 2 samples.

Results

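The genes described here combine a high read count with a short coding sequence. They were selected on measured counts: of 21787 listed genes, 121 had at least 5000 counts summed over a T3 and a control library and a coding length under 1000 nt. The RNA came from whole bodies of Japanese flounder (Paralichthys olivaceus) at 42 days after hatching (DAH). Fish of the T3 group had been treated from 16 DAH, over 10 days, with 0.01 mg/L of 3,3′,5-triiodo-L-thyronine (T3), the active form of thyroid hormone. They were sampled 16 days after exposure had ended. Fish of the control group were untreated. Each group of 1000 larvae is represented by 1 library, with 6042338 gene counts for T3 and 4943675 for the control. The labels do not say how many fish went into a library.

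In flatfishes such as this one, thyroid hormone drives metamorphosis, during which an eye migrates across the head and the sides of the body come to differ in skin colour. The hormone acts through nuclear receptors that switch target genes on or off. In vertebrates, abundant messenger RNAs with short coding sequences typically include those for ribosomal proteins, globins, muscle proteins such as parvalbumin and myosin light chains, lens crystallins and pancreatic digestive enzymes. None of the 21787 listed IDs, the 121 among them (0 matched), occurred in the RefSeq table of 30478 flounder genes. So no gene was assigned to any of these families, and the whole-body label could not be checked against marker genes. Genes are therefore described by coding length and by rank, where rank 1 is the gene whose share of the counts, averaged over both libraries, is highest. Members of multigene families that split reads between copies cannot be told from other genes here.

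These 121 genes took 36.4% of the T3 counts (95% Wilson interval 36.3 to 36.4) and 38.1% of the control counts (38.1 to 38.2). The total moved by -1.76 percentage points, but this small net change hid larger movements in both directions. A share also depends on the other genes of its library. Genes with at least 5000 counts and coding lengths of 1000 nt or more took 32.0% of the T3 counts and 27.3% of the control counts. For 30 of the 121 genes the share was higher in the T3 library, by 4.68 points in sum, and for the other 91 it was lower, with a summed change of -6.44 points. With 1 library per group there is no replicate check and no p-value, and every interval covers counting error only. Whole-body values cannot tell fewer cells of a type from less RNA per cell.

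Most of the genes were slightly lower in the T3 library. Their median ratio was 0.827 (T3 over control, after scaling by the trimmed mean of M-values, TMM), or -0.27 on the log2 scale, against 0.01 for the 17301 genes with at least 10 counts. By the exact 95% counting interval, 86 of the 121 lay below equal abundance, 30 above it, and 5 had an interval that included it. Over all genes tested, 14.5% were lower and 11.3% higher by the same rule, but most of those genes have few counts and wide intervals. A closer background is the 109 genes with at least 5000 counts and coding sequences of 1000 nt or more, of which 50.5% were lower and 46.8% higher. Their median log2 ratio was -0.08.

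**Figure D1:**
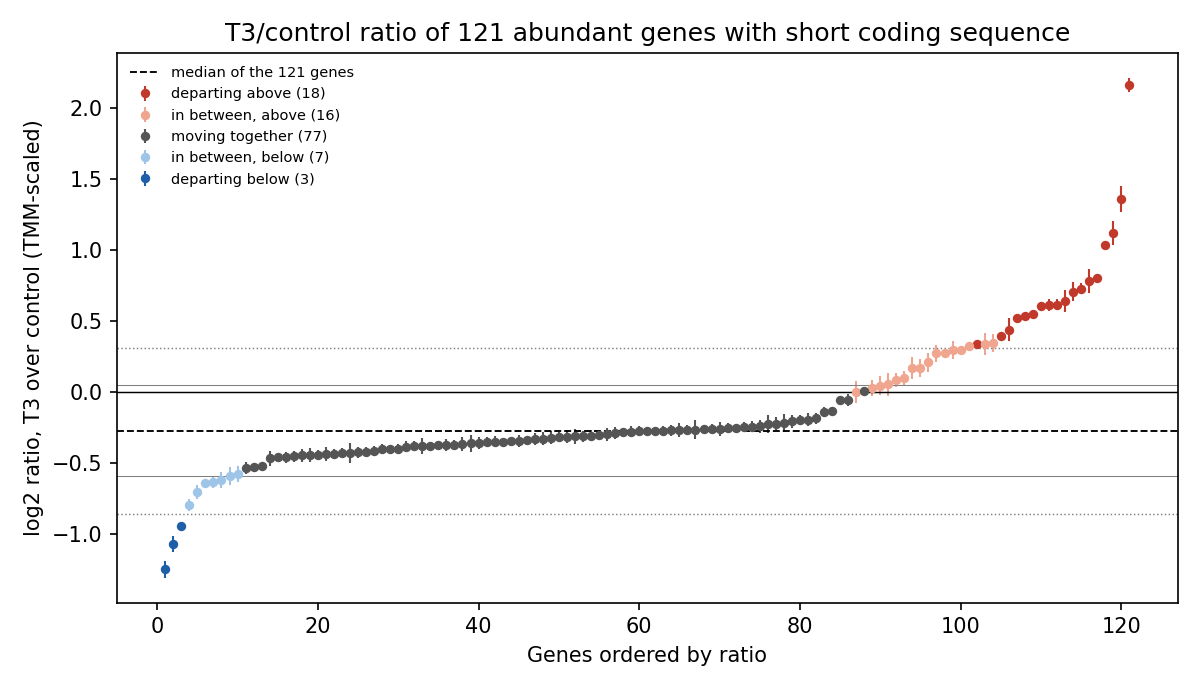
Log2 ratio (T3 over control, TMM-scaled) of the 121 genes in order of ratio, with 95% counting intervals as bars. The dashed line is their median of -0.27, the grey solid lines lie 0.32 from it on the log2 scale and the dotted lines 1.5-fold; the 77 genes that moved together form the flat stretch and the 18 genes departing above form the steep right end.

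The distribution had a narrow core and a long upper tail. Between -0.5 and -0.2 on the log2 scale lay 66 of the 121 genes (54.5%). Above 0 lay 34 genes, spread out to 2.17, with 5 between -0.2 and -0.1 and 3 between -0.1 and 0. The bounds of these ranges were not among the planned limits. As a robust standard deviation, the spread of the log2 ratios was 0.23, against 0.61 for the 109 abundant genes with longer coding sequences, while the median half-width of a gene's counting interval was 0.04. The spread among genes was therefore wider than counting error. The 243 genes with short coding sequences and 1000 to under 5000 counts lay between, at a median of -0.16 and with a robust standard deviation of 0.37.

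**Figure D2:**
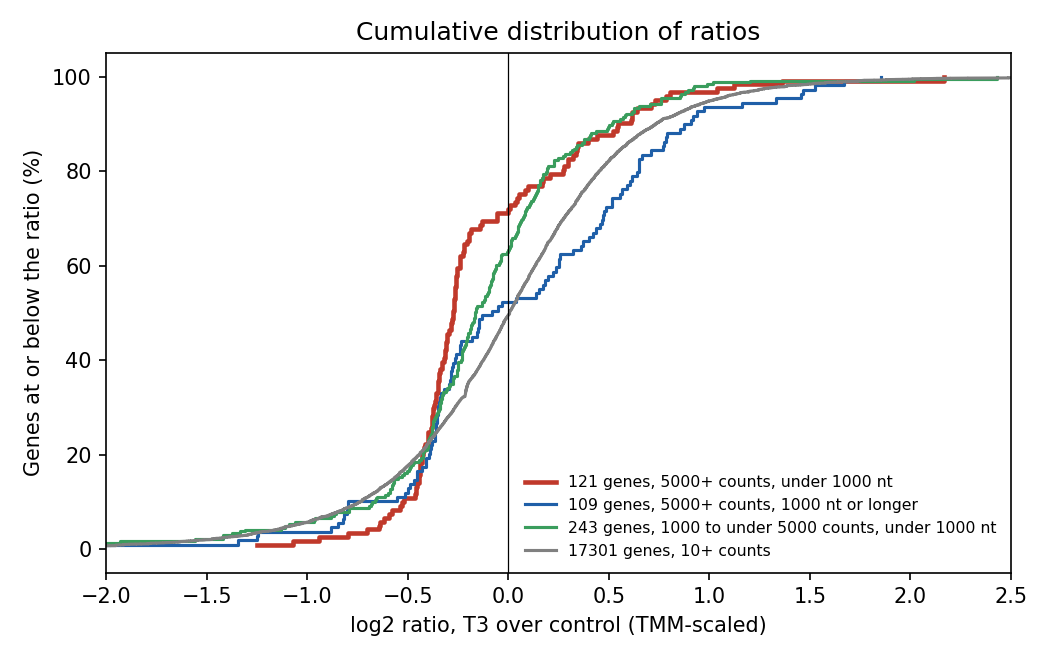
Cumulative percentage of genes (y axis) at or below a log2 ratio (x axis, T3 over control, TMM-scaled, drawn from -2 to 2.5) in 4 sets of genes. The red curve of the 121 genes climbs steeply between -0.5 and -0.2, where 54.5% of them lie; the blue curve of the 109 abundant genes with longer coding sequences is spread more widely.

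To separate the genes that shifted together from those that departed, each counting interval was set against the median of the 121 genes. A gene was counted as moving together when its whole interval lay within 0.32 of the median on the log2 scale, and as departing when its whole interval lay more than 1.5-fold from it. By this rule 77 genes (63.6%) moved together, 18 departed above the median and 3 below, and 23 lay in between, 16 of them on the upper side and 7 on the lower. The same windows, placed on the same median, held 41.3% of the 109 abundant genes with longer coding sequences as moving together, 34.9% as departing above and 3.67% as departing below. Over all genes tested the corresponding shares were 3.07%, 3.81% and 1.27%, but genes with few counts have intervals too wide to count as moving together. For the 243 genes with short coding sequences and 1000 to under 5000 counts the shares were 37.4%, 11.5% and 6.17%. For the 341 genes of that count range with 1000 nt or more they were similar, at 34.9%, 12.9% and 3.52%. Since the windows were centred on the median of the 121 genes, a larger share of these genes inside them is partly built in, and no test of the difference was made. The classes do not depend on how the libraries are scaled, which moves all genes by the same factor.

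The 77 genes that moved together held 16.2% of the T3 counts and 21.0% of the control counts, a change of -4.80 points. Their median ratio was 0.800, with quartiles of 0.759 and 0.834. They were not of one level or one length. Their level per coding length, in scaled counts per kilobase and per 1000000 counts (scaled CPM per kilobase), reached from 1079 to 40279 in the T3 library and from 1376 to 40042 in the control library. Coding lengths ran from 204 to 987 nt with a median of 504 nt. By their intervals 76 of the 77 lay below equal abundance, which the rule largely fixes, since its window reaches little above it.

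The most abundant genes of this class stood at its upper edge, close to equal abundance. The gene of rank 11 (285 nt) had 67624 counts in the T3 library and 57868 in the control library, or 1.12% and 1.17% of each total. Its scaled ratio of 1.01 (0.995 to 1.02) made it the 1 gene of the 77 whose interval included equal abundance. Rank 14 (417 nt) had 43413 counts in T3 and 38895 in the control, a ratio of 0.961 (0.948 to 0.974). The next most abundant were nearer the class median. Rank 15 (741 nt), with 32226 counts in T3 and 36570 in the control, had a ratio of 0.759 (0.747 to 0.770), and rank 20 (948 nt), with 27472 and 30699 counts in the same order, one of 0.770 (0.758 to 0.783).

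**Figure D3:**
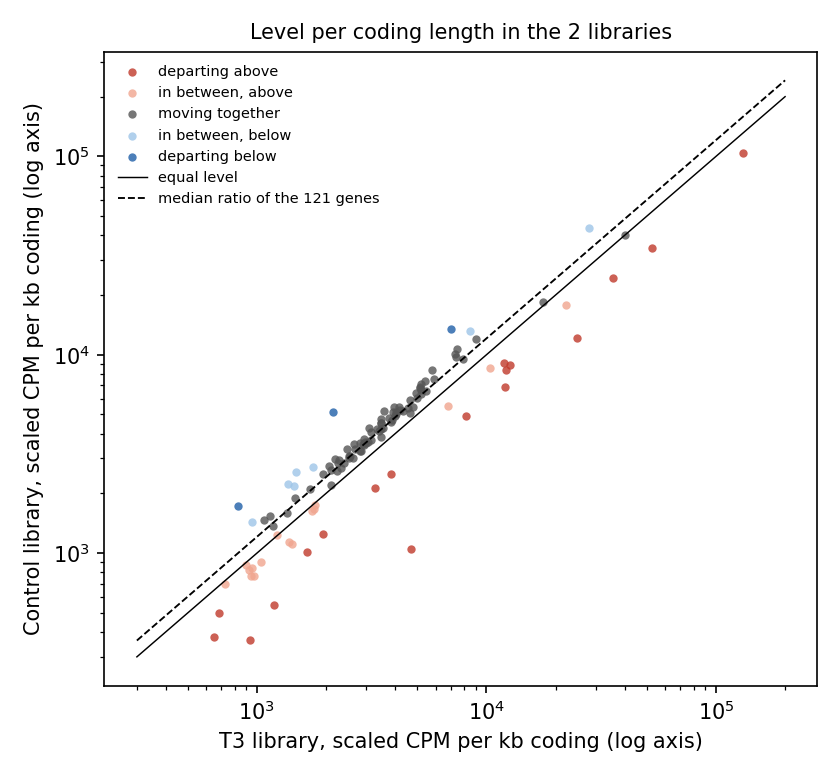
Level of each of the 121 genes per kilobase of coding sequence in the T3 library (x axis) and the control library (y axis), in TMM-scaled CPM on log axes. The solid line marks equal level and the dashed line the median ratio of 0.827; the 77 grey points follow the dashed line, from 1079 to 40279 in T3, and the 18 red points lie to the right of both lines.

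The 18 genes departing above the median took 13.9% of the T3 counts and 9.75% of the control counts. Their ratios ran from 1.26 to 4.49; the limit for departing above lies above equal abundance, so that a ratio over 1 is fixed by the rule. Their number varied with abundance. Among the 23 genes with 5000 to under 10000 counts, 6 departed above and 5 moved together, and the median log2 ratio was 0.17. The values of this class are partly shaped by the selection. The limit is on summed counts, so near it a gene with few control counts was selected only if its T3 count was high. Rank 222, with 4089 counts in T3 and 1371 in the control, is such a gene, as are ranks 205, 212, 213 and 234. Of 36 genes with 10000 to under 20000 counts, 1 departed above and 27 moved together, and of 42 genes with 20000 to under 40000 counts, 3 departed above and 38 moved together. Above these, 4 of 13 genes with 40000 to under 100000 counts departed above and 6 moved together, and 4 of the 7 genes with at least 100000 counts departed above and 1 moved together.

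Of the 121 genes, 4 (3.31%) lay more than 2-fold above equal abundance by their whole interval, compared with 0.462% of all genes tested and 6.42% of the 109 abundant longer genes. GS_011465 (rank 74, 768 nt) had 21220 counts in the T3 library, against 4071 in the control library, a scaled ratio of 4.49 (4.34 to 4.64). It stood at rank 31 within the T3 library and at rank 163 within the control library. This was the highest ratio of the 121 genes, 5.42-fold above their median. GS_018518 (rank 222, 744 nt) followed with 4089 counts in T3 and 1371 in the control, a ratio of 2.57 (2.41 to 2.73). The gene of rank 212 (597 nt) had 4185 counts in T3 and 1657 in the control and a ratio of 2.17, or 1.12 on the log2 scale (1.04 to 1.20). Ranks 222 and 212 passed the count limit mainly through their T3 counts, so their place among the 4 is partly set by the selection. Rank 8 (792 nt), with 116124 counts in T3 and 48662 in the control, had a ratio of 2.05 (2.03 to 2.08). With library totals in place of TMM 2 genes were beyond 2-fold, those with the 2 highest ratios.

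The other departing genes had ratios under 2. Rank 29 (429 nt) had 30386 counts in T3 and 14992 in the control, a ratio of 1.74 (1.71 to 1.78), and rank 234 (876 nt), the least abundant of the 121, had 3348 in T3 and 1676 in the control, a ratio of 1.72 (1.62 to 1.82). A ratio of 1.66 (1.61 to 1.70) was found for rank 81 (318 nt), with 15289 counts in T3 and 7935 in the control. Rank 177 (549 nt) had 5366 counts in T3 and 2827 in the control, with a ratio of 1.63 (1.56 to 1.71). These 4 genes differ widely in abundance. Their ratios are close because the genes are neighbours in the order by interval bound. Rank 91 (660 nt), at 12763 counts in T3 and 7163 in the control, had a ratio of 1.53 (1.49 to 1.58). Rank 3, the other gene of the first 10, is among the most abundant and is given with them. The remaining 8 had ratios of 1.26 to 1.56 and coding lengths of 330 to 855 nt. Together they took 7.73% of the T3 counts and 6.10% of the control counts. Rank 2 is among them, as are ranks 205 and 213, which lie near the count limit.

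None of the 5 most abundant of the 121 genes was among those that moved together. Rank 2 (330 nt) took 4.24% of the T3 counts (4.22 to 4.26) and 3.53% of the control counts (3.51 to 3.55), a ratio of 1.26 (1.26 to 1.27), and departed above the median. Per kilobase of coding sequence it had the highest level of the 121 in both libraries, at 131766 scaled CPM in T3 and 104299 in the control. Rank 3 (513 nt) took 2.65% of the T3 counts (2.63 to 2.66) and 1.82% of the control counts (1.81 to 1.84), and also departed above, with a ratio of 1.53 (1.51 to 1.54). Rank 5 (978 nt) took 2.11% in T3 and 1.78% in the control, and its log2 ratio of 0.32 (0.31 to 0.33) lay, by its interval, just short of the 1.5-fold limit from the median. Rank 8, described above, took 1.92% of the T3 counts and 0.984% of the control counts. The exception in direction was rank 7 (462 nt), which took 1.26% of the T3 counts and 2.07% of the control counts. Its ratio was 0.640 (0.634 to 0.646), in between on the lower side, and it ranked 11 in the T3 library and 3 in the control library.

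**Figure D4:**
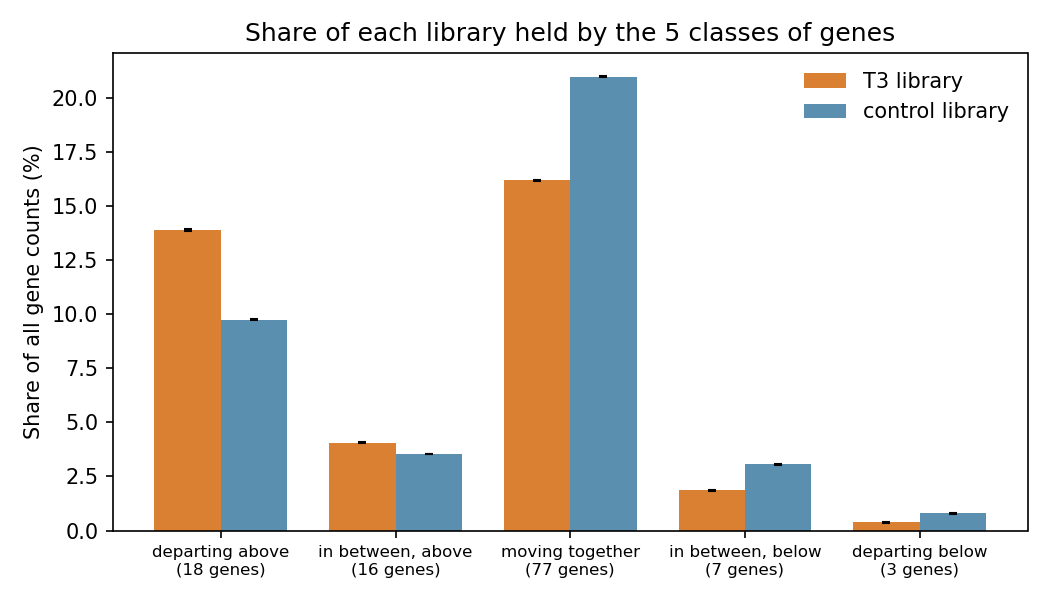
Share of all gene counts (%) held by the 5 classes of the 121 genes in the T3 library (orange, left bar) and the control library (blue, right bar), with 95% Wilson intervals as error bars. The 18 genes departing above held 13.9% in T3 and 9.75% in the control, and the 77 genes that moved together 16.2% in T3 and 21.0% in the control.

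In sum, the most abundant genes gained share while the whole set lost it, but they did not move alike. The 10 most abundant of the 121 took 16.4% of the T3 counts and 14.5% of the control counts, a change of 1.90 points, and the 111 others changed by -3.66 points. By their scaled intervals 5 of the 10 were higher in T3 and 4 lower. After scaling, the summed counts of the 10 had a log2 ratio of 0.25, and those of the 111 others -0.17. The 5 largest gains in share summed to 3.20 points, and the 5 largest losses to -1.63 points. The summed counts of the 121 genes had a log2 ratio of 0.0050 after scaling, whereas the median gene stood at -0.27. Without the departing genes, the 100 others took 22.1% of the T3 counts and 27.6% of the control counts, with a summed log2 ratio of -0.25. That this ratio is lower than with them follows from the class rule, as 18 of the removed genes departed above and 3 below. The first 50% of the set's counts was reached with 13 genes in the T3 library and 20 genes in the control library.

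On the lower side, 3 genes departed from the median. GS_002367 (rank 142, 276 nt) had 3503 counts in the T3 library and 7169 in the control library, and was 2.38-fold lower in T3 (2.28 to 2.48). GS_003294 (rank 146, 768 nt) had 3742 counts in T3 and 6769 in the control, 2.10-fold lower (2.02 to 2.19). These 2 (1.65% of the 121) were beyond 2-fold by their whole interval, compared with 0.913% of all genes tested and 3.67% of the 109 abundant longer genes. Upper-quartile scaling, and totals without the 20 most abundant genes, each left 1 gene beyond 2-fold. The third, of rank 31 (372 nt), was more abundant, with 15284 counts in T3 and 25309 in the control, and was 1.92-fold lower (1.89 to 1.96). The 7 genes in between on the lower side were 1.49-fold to 1.74-fold lower, so the lower tail was shorter and thinner than the upper one. The upper tail includes genes near the count limit that passed it mainly through their T3 counts.

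Coding length ordered the ratios weakly. Across the 121 genes the ratio correlated with coding length at a Spearman rho of 0.19, and at a Pearson r of 0.18 for log2 length, as a description across genes of the same 2 libraries. The median log2 ratio was -0.44 for the 8 genes under 300 nt and -0.32 for the 34 genes of 300 to under 450 nt. It was -0.27 for 30 genes of 450 to under 600 nt, -0.22 for 22 genes of 600 to under 750 nt and -0.24 for 19 genes of 750 to under 900 nt. The steps did not continue to the longest genes, as the 8 genes of 900 nt or more had a median of -0.31.

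Genes departing above had coding lengths of 318 to 876 nt, and those departing below had 276, 372 and 768 nt. Of the 18 departing above, 6 were of 300 to under 450 nt, 6 of 450 to under 600 nt, 2 of 600 to under 750 nt and 4 of 750 to under 900 nt, and neither the 8 shortest nor the 8 longest genes held any. Since 14.9% of the 121 genes departed above, classes of 8 genes are too small to show a length pattern. Nor does the class end at the 1000 nt limit, as 34.9% of the 109 abundant longer genes lay above the same limit for departing. The shortest gene, of 204 nt (rank 200), had 2974 counts in T3 and 3445 in the control, a ratio of 0.743 (0.707 to 0.781). The gene of 210 nt (rank 181) had 3678 in T3 and 3804 in the control, a ratio of 0.832 (0.795 to 0.871), and that of 219 nt (rank 62) had 10906 and 14604 counts in the same order, a ratio of 0.643 (0.627 to 0.659). At the other end, the gene of 987 nt (rank 36) had 17765 counts in T3 and 18234 in the control, a ratio of 0.839 (0.821 to 0.856). One of the genes of 954 nt (rank 55) had 12756 in T3 and 14311 in the control, a ratio of 0.767 (0.749 to 0.786). The second longest was rank 5, described above.

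Genes of identical coding length often differed. At 24 lengths the 121 genes held more than 1 gene, 51 genes in all, and the median difference between the lowest and highest log2 ratio at 1 length was 0.44. Over all 7260 pairs of the 121 genes the median absolute difference was 0.34. Some lengths hold 3 genes, so these 2 values are not strictly alike, and no closeness of ratio by equal length is shown. At 10 of the 24 lengths all genes moved together. This count needs every gene of a length in the class at once, so it cannot be set beside the 63.6% of single genes that moved together. At 4 lengths a gene that moved together shared its length with one that departed above: at 582 nt the log2 ratios were 0.61 and -0.44, and at 318 nt they were 0.73 and -0.32. The widest difference, 3.24, was at 768 nt, where GS_011465 and GS_003294 lie at opposite ends.

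**Figure D5:**
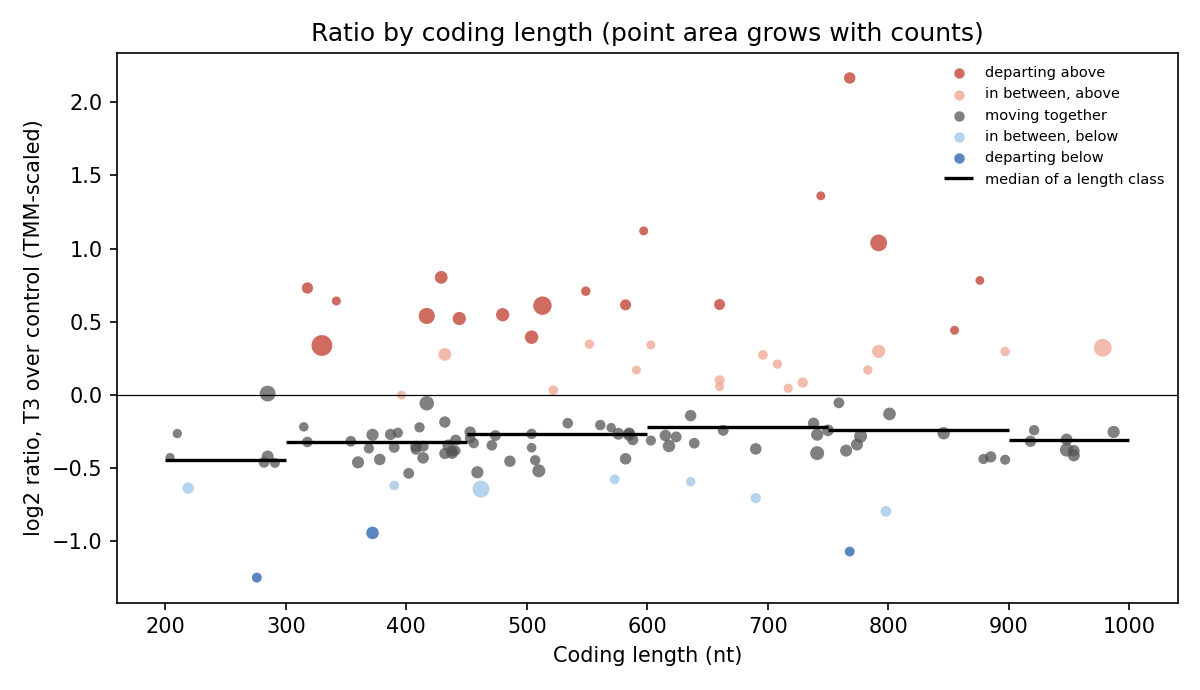
Log2 ratio (T3 over control, TMM-scaled) against coding length in nt for the 121 genes, coloured by class, with point area increasing with counts. Black bars are the medians of 6 length classes, from -0.44 under 300 nt to -0.22 at 600 to under 750 nt and -0.31 at 900 nt or more; genes departing above lie between 318 and 876 nt.

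The genes nearest to the limits of the selection, on either side, had mixed ratios. Just inside the count limit, genes with 5024, 5158 and 5325 counts had log2 ratios of 0.78, 0.06 and -0.0019, and just outside it genes with 4974, 4843 and 4841 counts had -0.16, 0.34 and -0.38. Inside the length limit, genes of 987, 978 and 954 nt had -0.25, 0.32 and -0.38. Just outside it, 2 genes of 1002 nt had 0.36 and 1.85 and a gene of 1008 nt had -0.29.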

How the data were processed

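Per the file headers, the authors deposited read counts and FPKM of each gene in both libraries. Other columns with sample values numbered 0. The submitters' processing notes name TopHat2 2.0.12, HTSeq 0.6.1 and edgeR, with no roles, and the sources used here give neither genome build nor annotation nor use of strand. Libraries were poly(A)-selected, per the labels' protocols.

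Coding length was computed as the control count divided by control FPKM and control total, rescaled to nt and divided by 9. The result was whole (tolerance 0.05) for all 19489 genes with a control count and a multiple of 3 for all but 1, and all 121 selected genes gave the same length from the T3 columns. The factor 9 is read from the values and stated nowhere; it scales levels per kilobase but no ratio.

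Counts were scaled by TMM (edgeR 4.0.16, R 4.3.3) over genes with at least 10 counts, with factors of 0.975 for T3 and 1.03 for the control. Log2 ratios had 0.5 added to each scaled count. Intervals of ratios are exact 95% Clopper-Pearson intervals for the fraction of a gene's counts that came from T3, and intervals of shares of a library are Wilson intervals (Python 3.11.15, scipy 1.17.1). The labels mention no molecular identifiers, and intervals cover counting error only. The selection used the summed counts and the length. It did not use the ratio directly, but it is not neutral to it near the count limit. There a gene with a low count in 1 library passed only through the other, and the T3 library is the deeper one. The selected genes and lists were chosen with earlier results of these data known. Single genes were named by rule: the 5 most abundant, the first 10 departing in each direction ranked by the interval bound nearest the median, and the 3 shortest and 3 longest. Ranks 11, 14, 15 and 20 and the genes of equal length were picked with their values known. The planned gene lists gave no result, as no ID had a name. The procedure was tested on simulated counts with counting error only and departures set at 2-fold. Such counts cannot show how far libraries of the same group would differ. Alternatives were other scalings (DESeq2 1.42.0 size factors among them), limits, intervals and the FPKM.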

Additional observations from a re-analysis of the deposited data

How the results depend on the processing

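The median log2 ratio of the 121 genes kept its sign under each of the 5 scalings. Library totals gave -0.35, totals without the 20 most abundant genes -0.19, and the deposited FPKM -0.35 with either 1 or 0.1 added. Library totals moved the median of all genes tested by -0.07, and leaving out the 20 genes by 0.08. TMM computed without the 121 genes was added after seeing the data and gave a median of -0.28. With a count limit of 3000 (173 genes), 48 genes were higher and 7 departed below; with 10000 (98 genes), 17 were higher. With a length limit of 1500 nt (173 genes), 53 were higher, 34 departed above and 5 below. These limits change which genes are counted. A departing limit of 0.32 on the log2 scale gave 28 genes above and 7 below, and one of 2-fold gave 5 and 0. A limit of 1.1-fold for moving together left 45 genes. The share of counts was 31.9% in T3 and 33.8% in the control without the 20 most abundant genes, 38.2% and 40.2% with the limit of 3000 counts, 34.9% and 36.7% with 10000, and 26.9% and 29.0% with 750 nt. It was 58.3% in T3 and 55.9% in the control with 1500 nt, the 1 setting in which the T3 share was the larger. The remaining 84 recomputed values included every other count, within 1.5 times of its reported value, and Spearman rho values from 0.14 to 0.28. Of 84 recomputed ratios of the 21 named genes, 43 moved beyond their counting interval. None changed direction, but none could, since a scaling moves all genes by the same small factor. The named gene nearest equal abundance, rank 36, had a log2 ratio of -0.25, and of -0.17 without the 20 most abundant genes. Ranks 11 and 14, at 0.01 and -0.06, were not among the 21 and lie closer to equal abundance than the widest such shift. No paired analysis was possible because there is a single library in either group, which also means that none could be left out. Depth limits little here, since the widest counting interval of the 121 genes had a half-width of 0.09 on the log2 scale.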

Other observations

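Among the 121 genes were 7 pairs with consecutive IDs, and the labels do not say whether ID order follows the genome. In 2 pairs both genes departed above the median: ranks 81 and 2 (318 and 330 nt) had log2 ratios of 0.73 and 0.34, and ranks 29 and 24 (429 and 444 nt) had 0.80 and 0.52. In another pair, ranks 9 and 11 (417 and 285 nt), the first departed above with 0.54 and the second moved with the others at 0.01. The median absolute difference in log2 ratio was 0.28 within the 7 pairs and 0.34 over all 7260 pairs of the 121 genes. These pairs were looked at after the values were seen.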
